A study of Mus musculus with 10 samples.

Results

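The end point of a chemical reprogramming course was compared with its starting cells. Mouse embryonic fibroblasts (MEFs) were turned towards extraembryonic endoderm (XEN)-like cells by small molecules alone, and single cells were sequenced along the way. The comparison took the cells whose names begin with d20 (day 20 of the course) and those whose names begin with d0 (untreated MEFs on day 0), and kept cells with at least 4000 detected genes. This left 38 of 72 d20 cells and 72 of 84 d0 cells, 110 of the 670 cells that passed the same filter in the whole series and of its 808 cells in all. The MEFs came from mid-gestation embryos of ICR mice without head, limbs and viscera, and d0 cells had grown in MEF medium with serum. The d20 cells had been kept in a medium with serum, serum replacement, bFGF and the C6FAE cocktail, which combines CHIR99021 (a GSK3 inhibitor), the compound abbreviated 6 (an inhibitor of the TGF-beta receptor ALK5), Forskolin (an activator of adenylyl cyclase), AM580 (a retinoic acid receptor agonist) and EPZ004777 (an inhibitor of the histone methyltransferase *Dot1l*). The labels name the cocktail C6FAE, while the description of the medium also lists valproic acid. Cells of later days without the cocktail were not analysed here, so cocktail, medium and time in culture cannot be told apart.

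XEN cells are cultured counterparts of the primitive endoderm, the early embryonic layer that forms the yolk sac. Its visceral branch is an absorptive epithelium around the embryo, and its parietal branch lays down a thick basement membrane. The transcription factors *Gata6*, *Gata4*, *Sox17*, *Sox7* and *Sall4* are known for setting up this identity. Fibroblasts are mesenchymal cells that secrete collagen and other stromal matrix and pull on it through actin stress fibres.

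Whole cells had been picked by hand, and RNA molecules were counted with unique molecular identifiers (UMIs), short tags that let copies of 1 molecule be counted once. The d0 cells held a median of 344196 UMIs (lowest 49225, highest 3679274) and 6719.5 detected genes. The d20 cells were shallower, with a median of 195480 UMIs (27845 to 570418) and 5128 detected genes. ERCC spike-in RNAs made up a median of 3.28% of the counts of a d0 cell and 19.3% of those of a d20 cell, and gene UMIs per spike-in UMI had medians of 29.5 and 4.19. The spike-in input per cell is not given in the sources used here. The series lists 10 sequenced batches, but cell names show only a day and a running number. All cells were therefore read as 1 sample without replicates, no test between the days was made, and SDs below are the spread over cells.

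Both labels were checked against markers. Over 10 fibroblast markers (*Thy1*, *Col1a1*, *Col1a2*, *Col3a1*, *Dcn*, *Lum*, *Prrx1*, *Twist2*, *Pdgfrb* and *Postn*), the sum of their CPM (a gene's UMIs scaled to a common total of gene UMIs per cell, as counts per 1000000) had a median of 3214 in d0 cells (lowest 88.5, highest 14208) and 16.6 in d20 cells (0 to 964). *Dcn* and *Postn* were at 0 in every d20 cell. Over 12 XEN markers (*Sox17*, *Sox7*, *Gata4*, *Gata6*, *Sall4*, *Foxa2*, *Dab2*, *Lama1*, *Lamb1*, *Col4a1*, *Cubn* and *Pdgfra*), the sum had a median of 256 CPM in d0 cells (15.6 to 3220) and 2455 CPM in d20 cells (214 to 4738). *Sall4* and *Foxa2* were at 0 in every d0 cell. The pair of d20 cells lowest in *Sox17*, numbers 10 and 12, was followed separately. These cells held 41.8 and 39.4 CPM of *Sox17* against 393 CPM or more in the other 36 d20 cells, and their XEN marker sums of 214 and 292 CPM lay below the 988 CPM of the next cell. Their low *Sox17* follows from this choice, and *Sox17* is part of the XEN sum. In the next cell, number 37, *Sox17* made up 732 of the 988 CPM. Cell 10 also held 8 of the 10 fibroblast markers. Both cells stayed in the comparison, and counts without them are given beside the main ones.

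**Figure D1:**
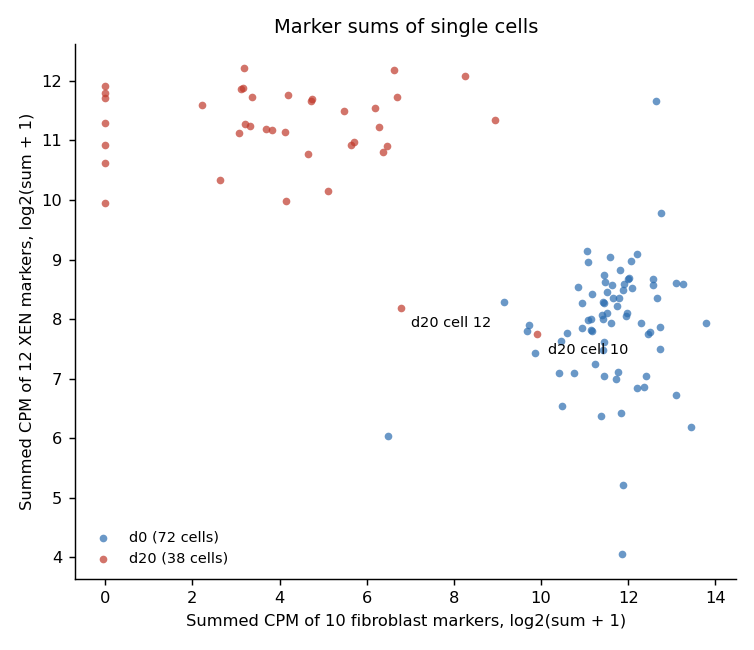
Summed CPM of 10 fibroblast markers (x axis) against 12 XEN markers (y axis), both as log2(sum + 1), with 1 point per cell for 72 d0 and 38 d20 cells. The d20 cells lie to the upper left except for cells 10 and 12, and 1 d0 cell reaches the XEN marker sums of the other d20 cells. Cells 10 and 12 were picked as lowest in *Sox17*, which is part of the XEN sum.

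The level of a gene was its mean log2(CPM + 1) over cells, and the difference was the level at d20 minus that at d0. A gene is said to have risen or fallen where the difference passed 2 (a 4-fold change on this scale) in either direction, among 9352 genes with a level of at least 1 on either day. Listed genes that passed this filter on low values are called measured below. A gene near 0 on 1 day passed only by its level on the other, so the filter favours genes that differ. By this rule 410 genes rose (4.38%) and 834 fell (8.92%), while 5599 genes (59.9%) differed by 1 or less. The median difference of all genes was -0.20. Without cells 10 and 12 the counts were 430 and 874. These are shares of each cell's RNA: of the genes past the threshold 32.96% had risen, and when cells were scaled by their spike-in RNAs instead, 72 genes rose and 3327 fell, so that 2.12% had risen and the median difference was -1.62. With every cell thinned to 50000 UMIs, which 71 d0 and 36 d20 cells allowed, 488 genes rose and 640 fell, so that 43.3% had risen. All other values are on the CPM scale without thinning unless stated.

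**Figure D2:**
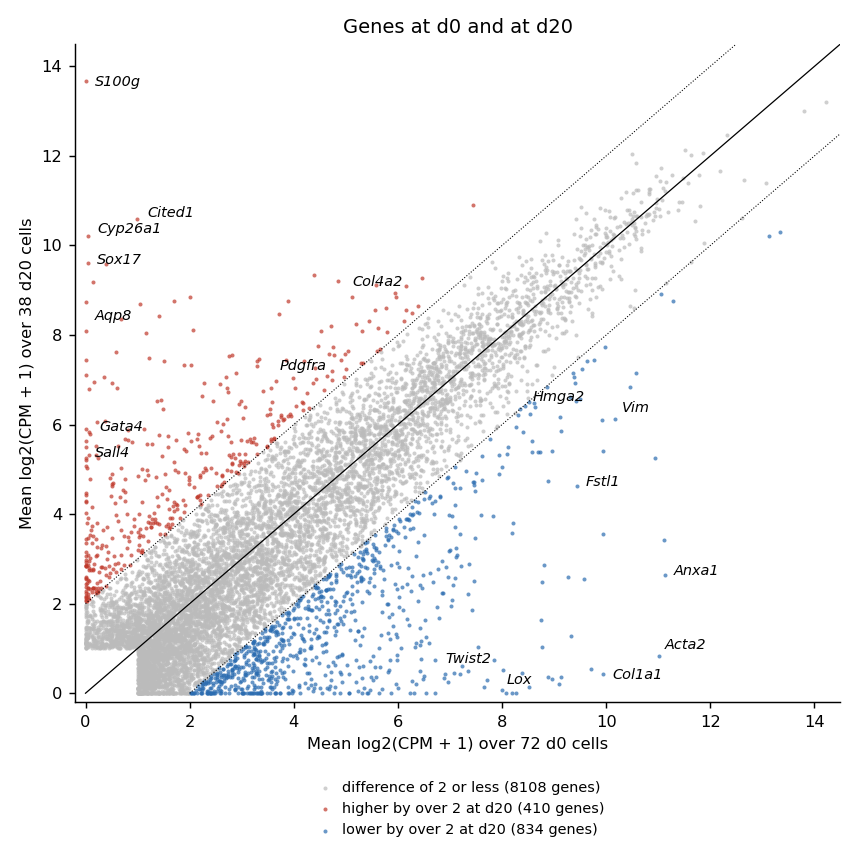
Level of 9352 genes as mean log2(CPM + 1) over 72 d0 cells (x axis) and over 38 d20 cells (y axis). Red points are the 410 genes higher by over 2 at d20, blue points the 834 lower by over 2, and dotted lines mark a difference of 2. *S100g* stands highest of the genes absent at d0, and *Acta2* and *Col1a1* lie at the lower right.

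Few genes separated the cells of the days completely. In 7 genes every d20 cell lay above every d0 cell (0.0749% of the genes), namely *S100g*, *Cyp26a1*, *Sox17*, *Srgn*, *Aqp8*, *Car4* and *Gpx2*, and in 2 genes every d20 cell lay below every d0 cell (0.0214%), *Lox* and *Ccl7*. Without cells 10 and 12 there were 15 such genes. Of the 410 genes that rose, 59 were found in all 38 d20 cells, 37 in no d0 cell and 29 in fewer than 19 d20 cells. Of the 834 that fell, 103 were found in all 72 d0 cells, 77 in no d20 cell and 618 in fewer than 19 d20 cells. A count of 0 in 38 cells allows a share of up to 7.89% of cells with a UMI.

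Most endoderm transcription factors rose. Of 17 listed regulators 15 passed the filter on low values, 10 of them rose and none fell, and their median difference was 4.29 against -0.20 for all genes. With spike-in scaling 8 rose and 1 fell (median 2.48). *Sox17*, an SRY-box factor of endoderm, went from 1 UMI in 1 of 72 d0 cells to all 38 d20 cells, where it ranged from 39.4 to 2223 CPM around a median of 837 CPM. Its level was 0.04 ± 0.38 (SD, n = 72 cells) at d0 and 9.62 ± 1.22 (SD, n = 38 cells) at d20. No d0 cell reached the lowest d20 cell.

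Most other factors were found in fewer d20 cells. *Cited1*, a transcriptional coregulator, had the largest rise in the list (difference 9.61, against 9.57 for *Sox17*) and was in all 38 d20 cells at 139 to 5397 CPM, but also in 28 d0 cells. *Gata4*, a zinc-finger factor of primitive endoderm, rose by 5.70 and was found in 34 of 38 d20 cells (median 91.4 CPM, highest 563 CPM) and 2 of 72 d0 cells. *Sall4*, a zinc-finger factor shared with pluripotent cells, rose by 5.64 and was found in 35 d20 cells (median 64.7 CPM) and no d0 cell. *Sox7*, the close relative of *Sox17*, rose by 5.11 and was in 34 d20 cells, and cells 10 and 12 were among those without it. The ETS factor *Elf3* (5.25), the homeobox genes *Esx1* (5.01) and *Gbx2* (2.81) and the forkhead factor *Foxa2* (2.59) also rose. *Foxa2* was found in 18 d20 cells, and its median over the d20 cells was 0.

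Not every known XEN regulator passed the threshold. *Gata6*, which starts the primitive endoderm programme in the embryo, had levels of 1.11 ± 2.02 at d0 and 2.22 ± 2.72 at d20 (SD over cells) and was found in 23 of 72 and 18 of 38 cells. After thinning to 50000 UMIs its shares of cells were 14.1% and 27.8%. The adaptor *Dab2*, a marker of primitive endoderm, had levels of 4.65 at d0 and 3.17 at d20, and was the only gene of the 15 with a difference below 0 (-1.48). *Tcf7l2* (1.73), *Gata5* (1.93) and *Foxq1* (1.42) lay below the threshold, and *Foxa1* and *Hnf4a* did not pass the filter on low values.

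The 10 factors that had risen were also counted in single cells. They were picked by this rise, so high counts at d20 and low ones at d0 follow from the choice. A d20 cell held between 5 and 10 of them, with a median of 8, and 9 of the 38 cells held all of them. A d0 cell held at most 3, and 39 of 72 held none. *Sox17*, *Gata4* and *Sall4* were found together in 32 of 38 d20 cells, and with *Foxa2* in 17. *Sox17*, *Gata4* and *Sall4* were each in most d20 cells, so many cells with all of them are given by that alone. Whether they occurred together more often was not tested. *Foxa2* was not found in any d20 cell without *Gata4*, *Gata4* was found without *Sall4* in 2 cells and *Sall4* without *Gata4* in 3. These counts are of cells with a UMI, and a cell without one may still have expressed the gene.

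**Figure D3:**
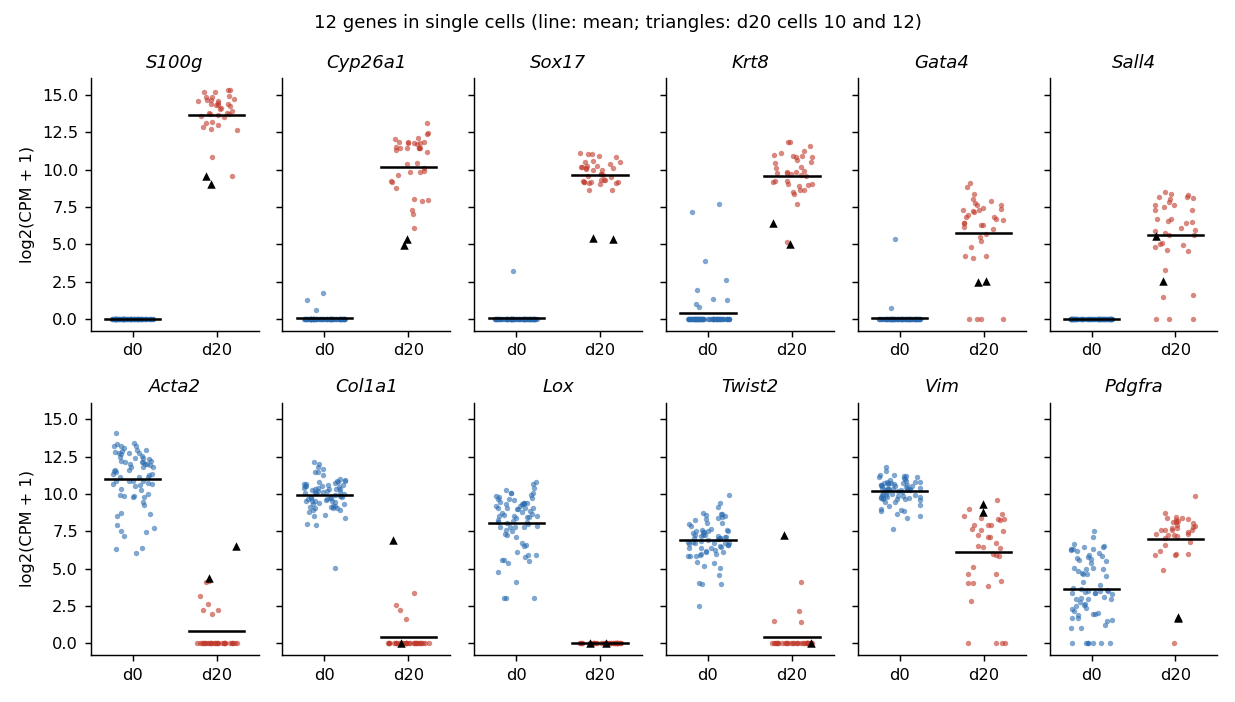
Log2(CPM + 1) of 12 genes (y axis) in 72 d0 and 38 d20 cells, with 1 point per cell, the mean as a line and d20 cells 10 and 12 as triangles. *S100g*, *Cyp26a1*, *Sox17* and *Lox* have no overlap between the days, whereas *Vim* and *Pdgfra* overlap widely.

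The most abundant gene of the d20 cells was a calcium carrier. *S100g*, which encodes the vitamin D-dependent calcium-binding protein calbindin-D9k of absorptive epithelia, was at 0 in all 72 d0 cells and between 529 and 41408 CPM in d20 cells, with a median of 17434 CPM or 1.74% of all UMIs of a cell. It had the largest difference of all genes, 13.67. Over pooled UMIs (132684 at d20) this was at least 201963-fold higher than the 3 UMIs that a count of 0 over the d0 cells allows. In d20 cell 10 it was lowest.

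Other genes of absorptive and transporting epithelia were among the 15 largest rises. *Aqp8*, a water channel, was at 0 in every d0 cell and at 7.85 to 12478 CPM in d20 cells (median 513 CPM). *Car4*, a membrane-bound carbonic anhydrase, was likewise at 0 at d0 and had a median of 329 CPM at d20 (10.6 to 2837 CPM). *Gpx2*, an epithelial glutathione peroxidase, went from 0 to a median of 196 CPM, and *Wfdc1*, a secreted protein with a whey acidic protein domain, from 0 to 278 CPM. All 4 genes had no UMI at d0, and *Wfdc1* was missing from 1 d20 cell. *Slc2a3*, the high-affinity glucose transporter, rose by 7.66 and *Bex4*, a small brain-expressed X-linked protein, by 7.02. Of 25 measured genes of membrane transport and the cell surface 11 rose and none fell (median 1.74), and *Ramp1*, which pairs with the calcitonin receptor-like receptor, was among them with 5.91. With spike-in scaling 7 rose and 4 fell (median -0.02). *Fam105a*, a relative of the deubiquitinase Otulin found in 20 d0 cells, rose by 7.03.

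Of 33 listed genes of the visceral endoderm 10 were measured, of which 7 rose and none fell (median 3.21). With spike-in scaling 4 rose and none fell (median 1.56). The medians cover only genes that passed the filter, which a gene near 0 at d0 could pass only by its d20 level. *Cyp26a1*, which degrades retinoic acid, had the next largest rise after *S100g* (10.16), from 3 UMIs in 3 d0 cells to a median of 2420.4 CPM at d20 (29.5 to 8780.5 CPM). *Apoe*, the lipid carrier apolipoprotein E, rose by 4.88 to a mean of 918 CPM. *Ihh*, a hedgehog ligand of this layer, was in 21 d20 cells and no d0 cell (2.86). The other 23 of 33 did not pass the filter on low values. Among these were genes of secreted serum proteins, with *Afp*, *Alb*, *Apoa1* and *Apob* in no d20 cell and *Ttr*, the carrier of thyroid hormone, in 1. Of the endocytic machinery of this epithelium 2 of 16 genes rose and none fell, with a median of 0.50. With spike-in scaling none rose and 8 fell (median -1.81). Those that rose on the CPM scale were *Lrp2*, the receptor megalin (2.51), and the lysosomal protease *Ctsz* (2.02, but -0.67 with spike-in scaling), while megalin's partner *Cubn* had a difference of 1.19.

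Parietal endoderm genes were split. Of 20 measured genes 9 rose and 3 fell, with a median of 1.82. With spike-in scaling 4 rose and 6 fell (median -0.37). *Srgn*, the core protein of the proteoglycan serglycin, rose by 9.03 (median 812 CPM at d20, highest d0 cell 5.74 CPM). *Podxl*, a sialomucin of free cell surfaces, rose by 5.25 and *Pth1r*, the parathyroid hormone receptor that parietal endoderm uses, by 4.78. The genes that fell were *Nid1*, *Vim* and *Plat*, of which the intermediate filament *Vim* went from a median of 1264 CPM (204 to 3552 CPM) to 119.7 CPM (0 to 787 CPM). *Vim* was still found in 34 of 38 d20 cells.

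Within the basement membrane, subunits moved in opposite directions. The laminin chains *Lama1* (5.02) and *Lamb1* (2.55) and the collagen IV chains *Col4a1* (level 5.56 at d0 and 8.55 at d20) and *Col4a2* (3.73) rose with the proteoglycan *Agrn* (2.38). *Lama1* was in 6 d0 cells and 34 d20 cells, whereas *Col4a1* was already in 67 of 72 d0 cells and overlapped between the days. *Nid1*, the linker nidogen that joins laminin to collagen IV, fell by 5.13, and so did the laminin chain *Lama4* (-2.91) and *Col18a1* (-2.03). Over 14 measured genes 5 rose and 3 fell, and the median was -0.87. With spike-in scaling 1 rose and 6 fell (median -1.35). *Lamc1* (1.73) and *Sparc* (-0.78) were below the threshold, with *Sparc*, a matrix protein of both cell types, at mean levels of 1899 and 1276 CPM. With spike-in scaling *Lamb1* had a difference of -0.15.

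Of 30 listed genes of the epithelial state 20 were measured, of which 13 rose and 1 fell (median 2.36). With spike-in scaling 4 rose and 1 fell (median 1.28). The other 10 listed genes did not pass the filter on low values, among them *Cldn3*, *Cldn4*, *Esrp1*, *Grhl2* and *Rab25*. The keratins *Krt8* and *Krt18*, which pair into the filaments of simple epithelia, rose by 9.20 and 7.07. *Krt8* was in 9 d0 cells and in all 38 d20 cells at 32.0 to 3701 CPM. *Krt18* was in 35 d0 cells, of which the highest reached 844 CPM, more than the d20 median of 738 CPM. *Epcam*, an epithelial adhesion molecule, rose by 6.72 (1 d0 cell and 35 d20 cells with a UMI) and *Spint2*, an inhibitor of membrane serine proteases, by 6.42. *Cdh1*, which encodes E-cadherin, rose by 2.28 and was in 18 d20 and 0 d0 cells. The member that fell was *Jup*, the junction protein plakoglobin (-2.13), while *Ocln* (1.97) and *Tjp1* (0.11) were below the threshold.

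Promoters of some of these genes are shown as examples that held an E-box. The letters CAGGTG, the kind of E-box that Snail and Zeb repressors are known to bind in epithelial genes, were searched on both strands (so CACCTG as well) in windows from 250 bases before to 50 after the first listed start of each gene in RefSeq (GRCm38.p6). They were in 10 of 15 promoters of the epithelial list that the table held, in 26.2% of the 309 matched genes that rose, in 11.3% of the 637 that fell, in 15.5% of all 7395 matched genes and in 20.03% of all 27025 promoters of the table. As such E-boxes are known from epithelial genes, the share of the epithelial list is no independent result. The 250 bases before the start are printed 5′ to 3′ on the strand of the gene with the E-box in capitals, for *Krt8* (chr15:102004343-102004592, minus strand), *Krt18* (chr15:102027966-102028215, plus strand), *Epcam* (chr17:87635729-87635978, plus strand) and *Spint2* (chr7:29281978-29282227, minus strand).
Krt8: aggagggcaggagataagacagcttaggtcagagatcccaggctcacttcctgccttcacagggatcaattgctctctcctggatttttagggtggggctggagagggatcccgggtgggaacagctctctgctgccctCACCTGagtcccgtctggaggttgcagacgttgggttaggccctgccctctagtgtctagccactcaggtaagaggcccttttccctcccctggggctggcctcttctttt
Krt18: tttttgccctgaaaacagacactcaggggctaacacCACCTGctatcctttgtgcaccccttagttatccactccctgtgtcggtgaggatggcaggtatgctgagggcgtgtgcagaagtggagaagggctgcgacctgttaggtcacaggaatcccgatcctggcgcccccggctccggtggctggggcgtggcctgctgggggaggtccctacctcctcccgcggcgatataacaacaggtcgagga
Epcam: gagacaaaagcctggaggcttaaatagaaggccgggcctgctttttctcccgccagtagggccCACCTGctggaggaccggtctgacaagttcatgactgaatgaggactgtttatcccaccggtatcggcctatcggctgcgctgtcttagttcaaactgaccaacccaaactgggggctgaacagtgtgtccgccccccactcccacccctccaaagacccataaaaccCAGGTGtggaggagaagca
Spint2: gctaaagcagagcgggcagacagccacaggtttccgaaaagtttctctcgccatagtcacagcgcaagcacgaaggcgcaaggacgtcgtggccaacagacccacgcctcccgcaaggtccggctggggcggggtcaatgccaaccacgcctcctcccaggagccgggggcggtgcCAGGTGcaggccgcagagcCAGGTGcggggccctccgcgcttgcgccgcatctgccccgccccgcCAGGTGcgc

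*Krt8* and *Krt18* each held 1 such match in these bases, *Epcam* 2 and *Spint2* 3. Of 9 genes of the list that rose and had a promoter in the table, 7 held a match in these bases. *Cldn7* (2.16) and *Spint1* (2.44) rose without a match there, and *Krt7* (-0.71) held 1. Among the largest rises outside the list, *S100g*, *Cyp26a1*, *Cited1*, *Srgn*, *Aqp8*, *Car4*, *Ifitm1*, *Gpx2* and *Bex4* held none. A match describes the letters only. Among the repressors that bind such letters, *Snai2* (-3.36) and *Zeb2* (-2.70) fell, while *Snai1* (-0.96) and *Zeb1* (-1.69) were below the threshold. A link between these repressors, the E-box and the rises was not tested. Other letters were searched in the same windows. AGATAA, known from GATA sites, was in 3.88% of promoters of genes that rose and 5.53% of all matched promoters, and ACAATG, known from Sox sites, in 6.15% and 6.48%. TGTTTAC, known from forkhead sites, was in 4.53% and 2.41%, and the TATA box TATAAA in 8.09% and 6.87%. TGANTCA, known from AP-1 sites, was in 5.50% and 4.22%, and GGAATG, known from TEAD sites, in 12.9% and 11.6%. GGAATG was also in 16.6% of promoters of genes that fell and in 10 of 22 of the contractile list. That list was put together with known target genes in it, so its share is no independent result.

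Most fibroblast transcription factors fell. Of 19 measured factors 11 fell and none rose, with a median of -2.35. The homeobox gene *Prrx1*, a regulator of limb and skin mesenchyme, went from a median of 212 CPM at d0 (0 to 749.6 CPM) to 4 d20 cells with a UMI, a difference of -6.62. *Twist2*, a basic helix-loop-helix factor of dermal mesenchyme, was in all 72 d0 cells (4.80 to 956 CPM) and in 5 d20 cells, and d20 cell 10 held the highest value among the latter. *Osr1* (-5.30) and *Snai2* (-3.36) had no UMI in any d20 cell, which over pooled UMIs is at least 387-fold and 89.6-fold lower.

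The rest of these factors lay on both sides of the threshold. *Aebp1* (-5.05), *Nfix* (-4.62), *Twist1* (-2.89), *Prrx2* (-2.78), *Zeb2* (-2.70), *Runx2* (-2.35) and *Tcf4* (-2.35) passed the threshold. *Tcf4* remained in 26 of 38 d20 cells. *Zeb1* (-1.69), *Tbx15* (-1.57), *Osr2* (-1.37), *Meox2* (-1.20), *Foxp1* (-1.10) and *Snai1* (-0.96) did not, nor did *Creb3l1* (0.20) and *Runx1* (0.39). A d0 cell held a median of 10 and at least 5 of the 11 factors that had fallen, and a d20 cell a median of 2 and at most 5. These 11 were picked by their fall, so the split between the days follows from the choice.

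Stromal matrix had the lowest median of the 30 lists. Of 34 collagens and matrix proteins 33 fell and none rose, with a median of -4.63, and the exception was *Fmod* (-1.16). Together they made up a median of 0.835% of the UMIs of a d0 cell and 0.0403% of those of a d20 cell. *Col1a1*, the main chain of collagen I, fell from a median of 1046 CPM (32.2 to 4515 CPM) to UMIs in 5 of 38 cells, a difference of -9.50. Its partner chain *Col1a2* fell by 8.05. *Lox*, which crosslinks collagen, was in all 72 d0 cells at 7.29 to 1778 CPM and in no d20 cell, at least 1357-fold lower over pooled UMIs. The proteoglycan *Bgn* (-8.19) also had no d20 UMI.

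Most genes of the contractile apparatus fell as well. Of 28 genes 22 fell and none rose (median -3.85), and their summed share of UMIs had medians of 2.92% at d0 and 0.415% at d20. *Acta2*, smooth muscle actin, had the largest fall of all genes (-10.20), from a median of 2727 CPM (66.5 to 17073 CPM) to UMIs in 9 of 38 d20 cells, the highest at 92.6 CPM. The highest d20 cell lay above the lowest d0 cell. *Tagln*, an actin-binding protein of smooth muscle, fell by 8.87, and so did the tropomyosin *Tpm2* (-7.74) and the matrix protein *Thbs1* (-7.93). *Srf* itself, the serum response factor that drives many of these genes, had a difference of -0.97, and *Myl9* (-0.71), *Tagln2* (-1.27) and *Zyx* (-1.32) also lay below the threshold. The beta-actin gene *Actb* fell by 2.92.

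The CArG box, the site that serum response factor binds, was searched as CCWWWWWWGG (W for A or T) in the same promoter windows on both strands. It was in 5 of 22 promoters of the contractile list that the table held, in 2.51% of genes that fell, in 2.27% of genes that rose, in 1.35% of all 7395 matched genes and in 1.57% of all promoters of the table, and its letters can include TATAAA. The contractile list was built from known targets of serum response factor as well, so its share is no independent result. For *Cnn2* (calponin 2, difference -6.69) and *Vcl* (vinculin, -4.62) the 250 bases before the start are printed as examples with the box in capitals, at chr10:79988350-79988599 and chr14:20929148-20929397 of GRCm38.p6, both on the plus strand.
Cnn2: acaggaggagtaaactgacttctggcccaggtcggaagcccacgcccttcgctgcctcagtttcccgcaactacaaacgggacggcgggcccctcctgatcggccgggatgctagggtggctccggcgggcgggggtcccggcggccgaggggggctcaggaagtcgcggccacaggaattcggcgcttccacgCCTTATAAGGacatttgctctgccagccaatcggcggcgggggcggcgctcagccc
Vcl: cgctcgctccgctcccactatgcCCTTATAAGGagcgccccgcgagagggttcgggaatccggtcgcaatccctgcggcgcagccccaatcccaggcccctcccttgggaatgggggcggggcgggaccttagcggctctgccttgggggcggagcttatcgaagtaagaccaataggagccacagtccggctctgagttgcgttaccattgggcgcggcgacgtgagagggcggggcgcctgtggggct

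Neither sequence holds more than 1 box. The other 3 promoters with the box belonged to *Actg1* (-1.98), *Srf* (-0.97) and *Myl9* (-0.71), which were below the threshold. The same 250 bases of *Acta2* held no exact match. They did hold CCCTATATGG and CCTTGTTTGG, each 1 letter off the form searched, and such near matches were not counted.

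Most fibroblast surface markers fell. Of 19 surface markers 12 fell and 2 rose (median -3.13), and with spike-in scaling 14 fell and none rose. *S100a4* (-8.78), *Ly6a* (-6.18), *Ncam1* (-6.01) and *Axl* (-5.75) fell most. *Pdgfra*, a growth factor receptor that marks both mesenchyme and primitive endoderm, rose by 3.32, from a median of 10.5 CPM (0 to 186 CPM) to 192 CPM (0 to 915 CPM), and the days overlapped. *Pdpn*, a mucin-like surface protein, rose by 3.47. *Cav1*, the coat protein of caveolae, was in 71 of 72 d0 cells and in no d20 cell, and the annexins *Anxa3* (-9.16) and *Anxa1* (-8.49), the protease *Prss23* (-8.65) and the membrane protein *Tm4sf1* (-8.53) were also among the 15 largest falls. *Anxa1* remained in 18 d20 cells, and its highest value there was in cell 10.

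Chemokine and inflammatory genes fell or lay below the threshold. Of 13 measured genes 9 fell and none rose (median -3.18). *Ccl2*, which attracts monocytes, was in all 72 d0 cells at 4.16 to 14061 CPM (median 567 CPM), and d20 cells held 2 UMIs in all. Its neighbour *Ccl7* had 41166 UMIs over d0 cells and 1 at d20. *Csf1*, the macrophage growth factor, fell by 5.33, and so did the prostaglandin E synthase *Ptges* (-4.97).

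Signalling genes were compared by pathway, since the cocktail acts on several of them. In the TGF-beta and activin list, whose receptor the cocktail inhibits, 10 of 16 measured genes fell and none rose (median -2.32). Of all genes 8.92% fell and 4.38% rose. After thinning 7 genes of the list fell and 1 rose (median -1.87). *Inhba*, the activin A subunit, went from a median of 207 CPM in d0 cells, all of which held it, to 2 UMIs at d20. The ligand *Tgfb3* (-3.92) and the secreted glycoprotein *Fstl1* (-4.80) fell as well, while *Tgfb2* had a difference of 1.68 and the receptor *Tgfbr1* of 0.08.

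BMP genes moved in both directions. Of 17 measured genes 5 fell and 2 rose (median -1.47). After thinning 2 rose and 2 fell, and with spike-in scaling none rose and 6 fell. The ligand *Bmp2* rose by 3.46, from 45 of 72 cells and a median of 2.55 CPM to 31 of 38 cells and 83.2 CPM, and the homeobox gene *Msx2* by 3.23. The ligand *Bmp4* fell by 2.26. Of the inhibitors of differentiation that BMP signals induce, *Id3* fell (-2.22), though it was still in 37 d20 cells, and *Id1* (-1.58) and *Id2* (-1.47) were below the threshold.

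Wnt genes moved in both directions on the CPM scale. The cocktail's GSK3 inhibitor mimics a Wnt signal, and 6 of 25 measured genes rose while 5 fell (median 1.02). After thinning 10 rose and 2 fell, and with spike-in scaling none rose and 9 fell (median -0.96). *Axin2*, a negative feedback target, rose by 3.36, with medians of 1.52 CPM at d0 and 59.1 CPM at d20. The deacylase *Notum* (2.20), the factor *Lef1* (2.02), the ligand *Wnt11* (2.67), *Dkk3* (2.62) and the secreted antagonist *Frzb* (4.37) rose too. The Frizzled receptors *Fzd1* (-2.08), *Fzd2* (-2.84) and *Fzd7* (-2.09) and the antagonists *Sfrp2* (-3.20) and *Dkk2* (-2.69) fell. *Ctnnb1*, which encodes beta-catenin, differed by -0.45.

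In the retinoic acid list, 1 gene rose, *Cyp26a1*, and 3 of 13 fell. These shares of 7.69% and 23.1% stand beside 4.38% and 8.92% of all genes. *Crabp1*, a cytoplasmic carrier of retinoic acid, was in all 72 d0 cells (median 540.2 CPM) and in 24 d20 cells (median 5.66 CPM), with its highest d20 values in cells 10 and 12. The receptor *Rarg* fell by 2.56, and so did the reductase *Dhrs3* (-2.51), whereas the receptor *Rarb* had a difference of -1.42. The median of the list was -0.23. After thinning 2 genes of the list rose and 2 fell (median 0.04).

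Among receptor kinases and their pathways more genes fell than rose. Of 23 measured genes 9 fell and 2 rose (median -1.72). *Pdgfrb* (-3.22), *Fgfr1* (-3.13), *Igf1r* (-3.84) and the ligand *Fgf7* (-3.64, no d20 UMI) fell. *Kit*, the stem cell factor receptor, rose by 3.87, from 3 UMIs at d0 to 28 of 38 d20 cells, beside *Pdgfra*. Genes of the cAMP response, which Forskolin stimulates, mostly lay below the threshold, with *Ramp1* the 1 that rose and *Prkar2b*, a regulatory subunit of protein kinase A, the 1 that fell (-2.27) among 12 (median -0.99).

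Several genes known from pluripotent cells rose on the CPM scale. Of 25 listed genes 11 were measured, of which 6 rose and none fell (median 2.03). With spike-in scaling 1 rose (median 0.46). Besides *Sall4* the 6 were the T-box factor *Tbx3* (3.48), the RNA-binding *Lin28a* (3.06, no d0 UMI), *L1td1* (2.68), *Klf5* (2.40) and *Klf4* (2.03). The other 14 listed genes did not pass the filter on low values, among them *Sox2*, *Zfp42*, *Utf1* and *Pou5f1*. *Pou5f1* was found in 1 of 38 d20 cells at 6.11 CPM, and *Esrrb* and *Fgf4* in none. *Nanog* was measured, had UMIs on both days and did not pass the threshold. Summed CPM over 8 pluripotency markers, *Nanog* and *Pou5f1* among them, had medians of 9.97 at d0 and 23.0 at d20. The highest cells reached 742 CPM at d0 and 172 CPM at d20. Of 8 DNA methylation enzymes 1 passed the threshold, the de novo methyltransferase *Dnmt3b* (2.21), and the median was 0.05. *Dot1l*, the target of EPZ004777, differed by 0.24.

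Hox genes, which record position along the body axis, did not pass the threshold in either direction among 16 measured (median -0.43 on the CPM scale). Imprinted growth genes fell in 7 of 18 measured cases and rose in 2 (median -0.95). With spike-in scaling 10 fell and none rose (median -2.85). *Dcn*, the proteoglycan decorin, had no d20 UMI (-6.70), and the growth restrainer *Cdkn1c* (-4.38), *Dlk1* (-4.11) and *Impact* (-3.65) fell. The adjacent genes *Peg10* (2.32) and *Sgce* (2.14) rose, the latter not with spike-in scaling (-0.33). The architectural chromatin protein *Hmga2* fell by 2.04, from a median of 427 CPM to 108 CPM, as the 1 gene past the threshold among 8 high mobility group genes (5 fell with spike-in scaling).

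Few proliferation genes passed the threshold on the CPM scale. None of 28 G2/M genes passed the threshold (median 0.03), and *Mki67* and *Top2a* differed by -0.29 and -0.28. Of 26 S phase genes 2 rose, the replication licensing factor *Cdt1* (2.25) and the chromatin assembly subunit *Chaf1b* (2.00), and the median was 0.93. With spike-in scaling 11 G2/M genes (median -1.81) and 5 S phase genes (median -1.20) fell and none rose, and the difference of *Chaf1b* was -0.05. Of 15 inhibitors of the cycle and p53 targets 4 fell and 2 rose, and with spike-in scaling 10 fell and none rose. The inhibitor *Cdkn2b* (-3.26), the stress cytokine *Gdf15* (-3.20) and *Gadd45b* (-3.19) fell with *Cdkn1c*, and *Gadd45a* (2.52) and the sestrin *Sesn2* (3.18) rose.

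As shares of RNA, most energy metabolism genes lay within the threshold. None of 35 nuclear genes of oxidative phosphorylation passed it (median 0.64), and with spike-in scaling 22 fell (median -2.09). Of 22 glycolysis and hypoxia genes *Slc2a3*, hexokinase 2 (*Hk2*, 2.85) and *Ndrg1* (2.52) rose, and the vasodilator peptide *Adm* fell (-5.07), with a median of 0.22. With spike-in scaling 1 of them rose and 10 fell (median -1.80). In the list of endoplasmic reticulum stress, the factor *Xbp1*, known for secretory cells, rose by 2.53 together with *Sesn2*, whereas *Herpud1* (-3.28), *Ddit3* (-2.32) and *Atf4* (-2.03) fell (median of 17 genes -0.25). With spike-in scaling none rose and 10 fell (median -2.70), and *Xbp1* differed by -0.15. Of 16 interferon response and MHC class I genes 2 rose, the membrane protein *Ifitm1* (7.66, from 31 to all 38 cells) and the MHC class I heavy chain *H2-K1* (4.36), and the median was -0.36. The light chain *B2m* differed by -0.23. In further lists spike-in scaling left 1 Hox gene, 1 DNA methylation enzyme, 3 interferon response genes and 4 cAMP response genes lower by over 2.

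**Figure D4:**
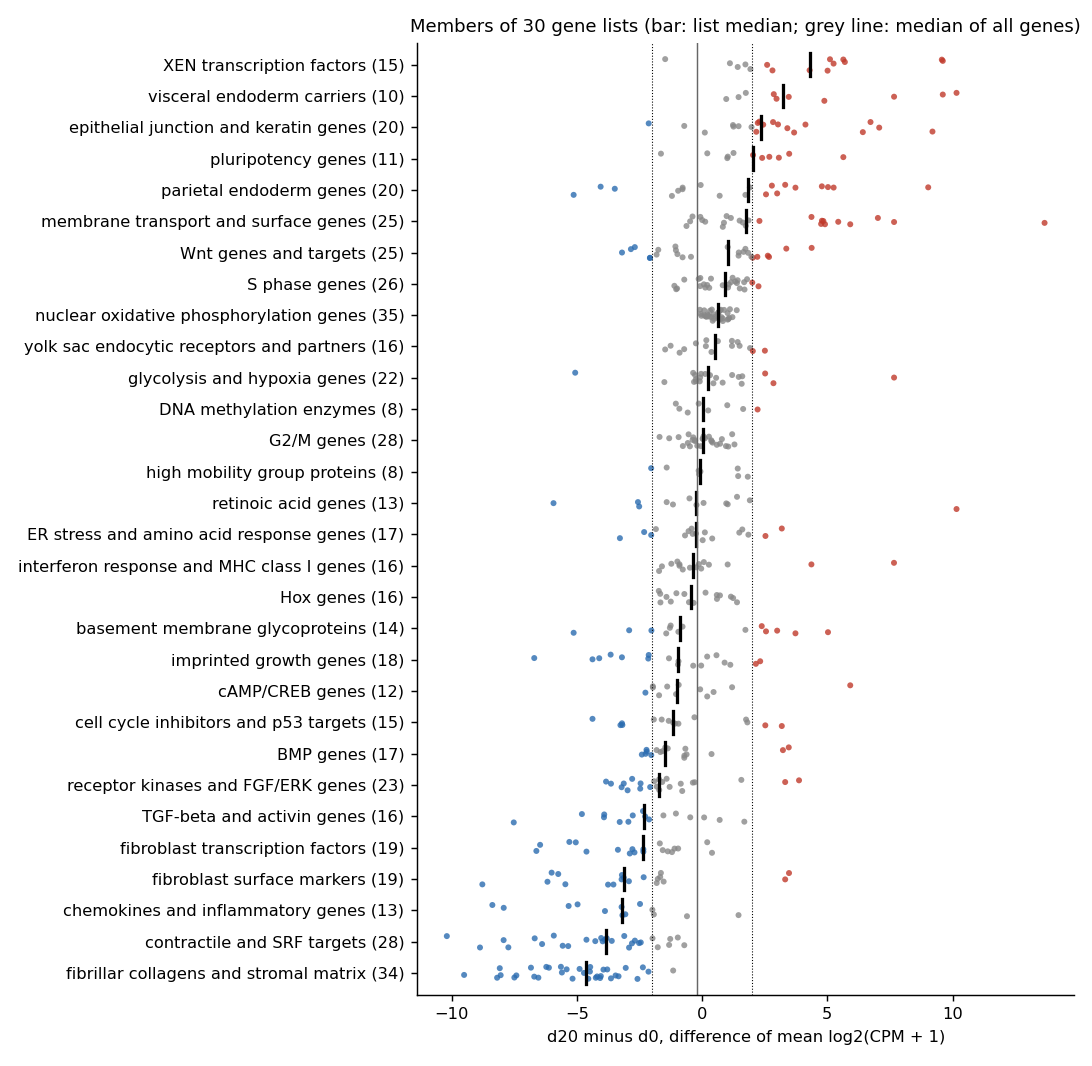
Differences of the measured members of 30 gene lists between d20 and d0 (x axis, difference of mean log2(CPM + 1)), with 1 point per gene, list medians as bars and the median of all genes (-0.20) as a grey line. Lists of XEN factors and visceral endoderm genes have the highest medians, fibrillar collagens and contractile genes the lowest. The number of measured genes stands after each name. Genes that did not pass the filter on low values are left out, which favours genes that differ.

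The genes with the largest differences were also followed through the other groups of the course, which had 20 to 86 kept cells each. Of the 15 largest rises, *S100g* had a level of 0.48 at d8, 7.34 at d12, 11.21 in cells from colonies picked on day 12 (d12c) and 13.67 at d20. *Sox17* had 1.45, 3.20, 7.09 and 9.62 in the same groups. Both were lower in d12c than in d20 cells, and *Gpx2* was not (7.26 and 7.11). *Ifitm1* was already at 6.13 at d3, and *Fam105a* at 4.29 at d4. Of the 15 largest falls, *Acta2* fell from 11.02 to 5.43 at d5, *Lox* from 8.08 to 3.59 at d1 and 6.68 at d8. *Col1a1* was above its d0 level at d8 (12.02 against 9.94), and at 11.02 at d12 and 4.48 in d12c cells. *Bmp2* was at 5.93 at d2, 1.37 in the cells of day 6 and 5.17 at d20. *Pdgfra* had 6.20 at d1 and 8.41 at d12, so that its d20 level of 6.98 was not its highest.

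**Figure D5:**
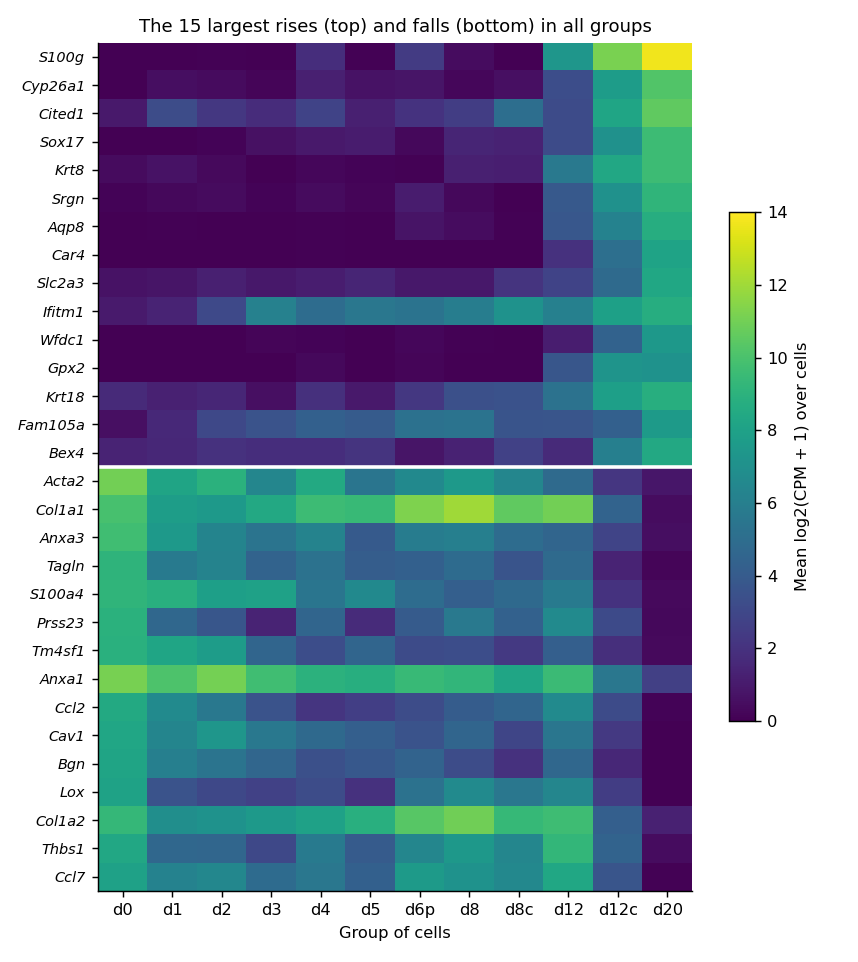
Mean log2(CPM + 1) over the kept cells of 12 groups (x axis, named by day, with c for cells from picked colonies and d6p for day 6) for the 15 largest rises and the 15 largest falls between d0 and d20 (rows). Most rises appear at d12 and d12c, and *Col1a1* and *Col1a2* are highest around d8.

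Some of the genes are neighbours on the chromosome. Of 4781 pairs of adjacent protein-coding genes that were both measured, in the RefSeq order, both rose in 27, both fell in 53 and the members moved in opposite directions in 16. Of all 9352 genes 4.38% rose and 8.92% fell, so some such pairs arise without any link. Whether neighbours moved together more often than these shares give was not tested. Pairs that both rose included *Krt8* and *Krt18*, *Col4a1* and *Col4a2*, *Sgce* and *Peg10*, and *Pdgfra* with *Kit*. Pairs that both fell included *Ccl2* and *Ccl7*, *Col3a1* and *Col5a2*, *Dcn* and *Lum*, and *Cav1* and *Cav2*. *Cldn6*, a claudin of early epithelia, rose (3.40) beside *Tnfrsf12a*, which fell (-4.19).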

How the data were processed

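Single cells had been picked by hand after digestion of the cultures, and their RNA was sequenced with unique molecular identifiers (UMIs). The authors deposited 1 table of counts, whole UMI counts per gene and cell, after alignment to the mm9 transcriptome per the labels and the study's methods. The aligner's version, the filter behind the listed cells and the counting of reads that match several genes are not given in the sources used here, so genes with near-identical copies or processed pseudogenes, such as *Krt8* and *Krt18*, are uncertain. The table held 23293 rows (23197 genes after 92 ERCC rows and 4 repeated gene rows had been left out) and 808 cells. Of its gene names 26 had been turned into dates and were kept as they stand, and 5 counts reached 100000 or more.

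Cells were grouped by the day in their names. As no cell could be assigned to 1 of the 10 batches, all cells counted as 1 sample, and no test, p-value or standard error was made. Cells under 4000 detected genes were removed. Counts were divided by the cell's gene UMIs and scaled to CPM. The difference of mean log2(CPM + 1) was taken for genes whose mean reached 1 on either day, with a threshold of 2. Total gene UMIs per kept cell ran from 49225 to 3679274 at d0 and from 27845 to 570418 at d20. Intervals are at 95% (Clopper-Pearson for shares of cells, Poisson for sums). They and the limit of 3 counts for a 0 cover counting error only. Named were the 15 largest rises and falls, the listed XEN and fibroblast factors, up to 4 members per direction past the threshold in each other list, and members that went against their list. Other members named were chosen after their values were seen, and some list members are not reported here by name. The members and lists were chosen with earlier results of these data known. Promoters were matched by symbol to a RefSeq table (GRCm38.p6). The scripts were tested on simulated data. Python 3.11.15, numpy 2.4.6, pandas 2.3.3 and scipy 1.17.1 were used, with R 4.3.3, edgeR 4.0.16 and DESeq2 1.42.0 for alternative scaling factors only. Alternatives changed the filters on cells and genes, the numbers of the cells used, the pseudocount, the averaging, the scaling, the depth and the threshold.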

Additional observations from a re-analysis of the deposited data

How the results depend on the processing

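No paired analysis was possible because cell names carry neither batch nor replicate numbers and no test was made. The main counts were 410 genes higher, 834 lower and 9 without overlap between the days' cells. Genes higher numbered 215 without a filter on cells, 677 with cells numbered over 48 only, 724 and 143 with pseudocounts of 0.1 and 10, 1054 with the log2 of the mean CPM, 725 with the median over cells, 72 with spike-in scaling and 163 with a threshold of 3. Genes lower numbered 1365 with cells numbered over 48, 2008 and 208 with the same pseudocounts, 1563 with the median, 3327 with spike-in scaling and 334 with a threshold of 3. Genes without overlap numbered 1 without a filter on cells and 1 with at least 2000 detected genes, 35 with at least 6000, 93 with cells numbered over 48, 3 after thinning and 15 without d20 cells 10 and 12, a setting that shared 402 of the higher and 821 of the lower genes with the main counts. The share of higher among all called genes was 32.96%, and 17.2%, 21.4% and 46.5% without a filter on cells, with at least 2000 detected genes and with the log2 of the mean CPM. TMM and DESeq2 factors gave 361 and 365 higher and 952 and 932 lower genes. The median difference of all genes was -0.20, -0.36 with TMM, -0.34 with DESeq2 and -1.62 with spike-in scaling. Of 153 named genes under 14 settings (2142 values), 1918 values moved by less than 1 SD over cells, 219 by more, and 5 reversed, all with spike-in scaling, namely *Chaf1b* (-0.054), *Ctsz* (-0.67), *Lamb1* (-0.15), *Sgce* (-0.33) and *Xbp1* (-0.15), and the cause was not tested. Leaving out cells 10 and 12 and spike-in scaling were chosen after seeing the data. A count of 0 in 38 cells (3 counts of the total) allows a UMI in up to 7.89% of cells at this depth and sets no limit on the cells that express the gene.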

Other observations

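Genes of other tissues were found in some d20 cells. *Pax6*, a homeobox factor of eye and neural tissue, was in 20 of 38 d20 cells (mean 45.3 CPM, highest 364 CPM) and 3 of 72 d0 cells. After thinning to 50000 UMIs its shares were 38.9% and 2.82%. The neural markers *Tubb3*, *Elavl3*, *Sox1*, *Pax6*, *Map2* and *Stmn2* together had medians of 28.5 CPM in d20 and 2.16 CPM in d0 cells (highest cells 650 and 328 CPM), and *Sox1* was at 0 in all d20 cells. *Cdx2*, a factor of trophoblast and hindgut, was in 8 d20 cells and no d0 cell, with the trophoblast markers *Elf5*, *Hand1*, *Gcm1* and *Tpbpa* at 0 at d20. Muscle genes were found at d0, with *Myog* in 15 cells and *Actc1* in 33, and at d20 *Myog* was in none and *Actc1* in 1. Blood markers were at 0 at d20 in 7 of 9 genes and the adipocyte markers in 4 of 5.

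Cells 10 and 12 of d20 shared genes that the other 36 d20 cells held at low levels. *Tnfsf9*, *Mest*, *Col3a1* and *Sox7* were picked among the genes with the largest gaps, so their separation follows from that choice. *Tnfsf9* had log2(CPM + 1) values of 9.78 and 10.33 in them, against at most 3.71 in another d20 cell and a mean of 4.14 at d0. *Mest* had 8.45 and 8.55 against at most 4.66, and *Col3a1* 7.70 and 6.72 against at most 3.31. *Sox7*, with a mean of 5.61 in the other d20 cells, was at 0 in both. Y-linked genes (*Ddx3y*, *Eif2s3y*, *Kdm5d* or *Uty*) were found in 20 and *Xist* in 15 of 38 d20 cells, with both in 6. At d0 both were found in 24 of 72 cells. Of matched genes that rose, 6.80% lay on the X chromosome, against 3.71% of all matched genes and 4.24% of those that fell.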
